A study of Homo sapiens with 18 samples.

Results

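The APOBEC genes encode cytidine deaminases, enzymes that turn cytidine into uridine in single-stranded DNA or RNA. The APOBEC3 enzymes restrict retroviruses and retroelements and are a known source of mutations in tumours, where uracil left in DNA is read as thymine or removed by base excision repair. APOBEC1 edits the messenger RNA of apolipoprotein B in the gut, and APOBEC2 is a muscle protein. 9 of the 58870 genes in the deposited count table were taken by their symbols: APOBEC3A, APOBEC3B, APOBEC3C, APOBEC3D, APOBEC3F, APOBEC3G, APOBEC3H, APOBEC1 and APOBEC2.

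RNA-seq was done on 3 human melanoma cell lines, WM164, SKMel28 (SKMEL28 in the labels) and A375. Each line overexpressed either MAFG, a small MAF transcription factor, or green fluorescent protein (GFP) as the control, and each of the 6 conditions had 3 libraries. By the study's methods both proteins were carried by the same lentiviral vector with an EF1α promoter and blasticidin resistance, MAFG with a Myc-DDK tag, so the GFP cells shared transduction and vector with the MAFG cells. The methods describe transduced cultures and name no clone, and speak of repeated experiments in general, but no label ties the libraries of a condition to separate cultures. The p-values therefore measure the spread between these libraries.

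Library totals ran from 20122172 to 39025042 counts, the lowest in SKMel28 GFP library 2. MAFG, the overexpressed gene, stood at 24.4 ± 2.71 CPM (counts scaled to library size; SD, n = 3) in WM164 GFP cells and 50.1 ± 4.43 in WM164 MAFG cells, at 23.03 ± 3.23 and 35.7 ± 1.52 in SKMel28, and at 30.0 ± 5.63 and 52.3 ± 8.86 in A375. MAFG thus rose by 1.04 log2 units in WM164 cells and by 0.64 in SKMel28 cells (adjusted p = 6.37e-08 and 0.000128, edgeR). The log2 difference of 0.80 seen for A375 cells missed the threshold (adjusted p = 0.0655, edgeR). The count-to-TPM ratio of MAFG, scaled by depth, varied 4.83-fold between libraries, and on the TPM scale MAFG was at 2.89 ± 0.54 with GFP and 24.5 ± 3.34 with MAFG in WM164, at 3.96 ± 0.64 and 16.97 ± 2.66 in SKMel28 and at 4.22 ± 0.29 and 25.2 ± 2.88 in A375. MITF, a melanocyte transcription factor, stood at 415 ± 14.7 and 264 ± 2.34 CPM with GFP and MAFG in WM164, at 619 ± 10.4 and 539 ± 12.8 in SKMel28 and at 31.8 ± 1.58 and 30.3 ± 6.66 in A375. Summed TPM, a level scaled by transcript length as well, of 6 melanocyte lineage genes ran from 593 to 1932 in WM164 and SKMel28 but from 11.8 to 47.3 in A375, where MLANA and TYR were at 0. 11 blood cell markers, checked because blood cells are rich in APOBEC3 transcripts, summed to at most 1.01 TPM in any library, with CD3E, CD2, NKG7 and MS4A1 among those at 0 in all conditions. The keratinocyte keratins KRT5 and KRT14 summed to at most 0.91 TPM.

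The 7 APOBEC3 genes lie head to tail on the plus strand of chromosome 22, at chr22:38952741-39104067 (GRCh38, GENCODE 44), between CBX6 and CBX7. APOBEC1 lies on chromosome 12 and APOBEC2 on chromosome 6. The annotated proteins of APOBEC3B, APOBEC3D, APOBEC3F and APOBEC3G, of 373 to 386 residues, each held 2 copies of the zinc-binding deaminase motif, which pairs a histidine and a glutamate with 2 cysteines. The other 5, of 183 to 236 residues, held 1 copy. The coding windows from the histidine to the last cysteine are shown for 7 APOBEC3 genes because the paralogs share sequence there, which bears on how reads were assigned. In members with 2 motifs, the second domain is known as the catalytic one. Each window lies within 1 exon and is written on the plus strand, 5′ to 3′, with the codons of the histidine, the glutamate and the 2 cysteines in capitals. The window of APOBEC3A (chr22:38961420-38961530) is also the second window of APOBEC3B, base for base over 111 bases. The first window of APOBEC3B (chr22:38985833-38985937) is also the first window of APOBEC3F, and the second window of APOBEC3D (chr22:39031715-39031819) is also the second window of APOBEC3F, both over 105 bases without a mismatch. The remaining lines give APOBEC3C (chr22:39017787-39017891), the second window of APOBEC3G (chr22:39086312-39086416) and APOBEC3H (chr22:39101246-39101350).
APOBEC3A and APOBEC3B second: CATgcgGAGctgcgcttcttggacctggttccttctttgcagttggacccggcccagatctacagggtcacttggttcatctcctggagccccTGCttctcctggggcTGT
APOBEC3B first and APOBEC3F first: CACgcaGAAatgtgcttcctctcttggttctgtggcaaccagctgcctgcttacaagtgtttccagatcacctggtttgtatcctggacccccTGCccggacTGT
APOBEC3D second and APOBEC3F second: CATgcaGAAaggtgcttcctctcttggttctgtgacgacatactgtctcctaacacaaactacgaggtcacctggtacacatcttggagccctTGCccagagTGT
APOBEC3C: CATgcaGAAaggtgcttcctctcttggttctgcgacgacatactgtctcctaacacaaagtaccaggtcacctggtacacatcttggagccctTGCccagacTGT
APOBEC3G second: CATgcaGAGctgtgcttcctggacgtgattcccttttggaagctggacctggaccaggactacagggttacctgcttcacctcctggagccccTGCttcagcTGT
APOBEC3H: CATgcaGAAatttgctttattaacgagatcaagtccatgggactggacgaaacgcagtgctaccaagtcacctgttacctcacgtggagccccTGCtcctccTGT

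The APOBEC3C window differed from the second window of APOBEC3D and APOBEC3F at 4 of 105 bases (96.2% identity), whereas APOBEC3G second and APOBEC3H matched at 61.9% of bases. A read that falls within an identical window cannot be assigned by its own sequence. The study's methods describe pairs of 100-base reads, and the help a mate could give was not counted here. Over whole transcripts, 17.1% of the 100-base windows of APOBEC3B occurred in another gene, 6.78% of those of APOBEC3F, 3.54% of those of APOBEC3G and none of those of APOBEC3C or APOBEC3H. APOBEC3D stood apart, with 80.2% of its windows shared. Most of that sharing was with AL022318.4, a gene model whose exons covered 83.2% of the exonic bases of APOBEC3D on the same strand and that reached back into the start of APOBEC3C. Windows shared with other members were 8.73% of APOBEC3D. The antisense gene APOBEC3B-AS1 overlapped 12.9% of the exonic bases of APOBEC3B but was listed at 0 in every library.

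**Figure D1:**
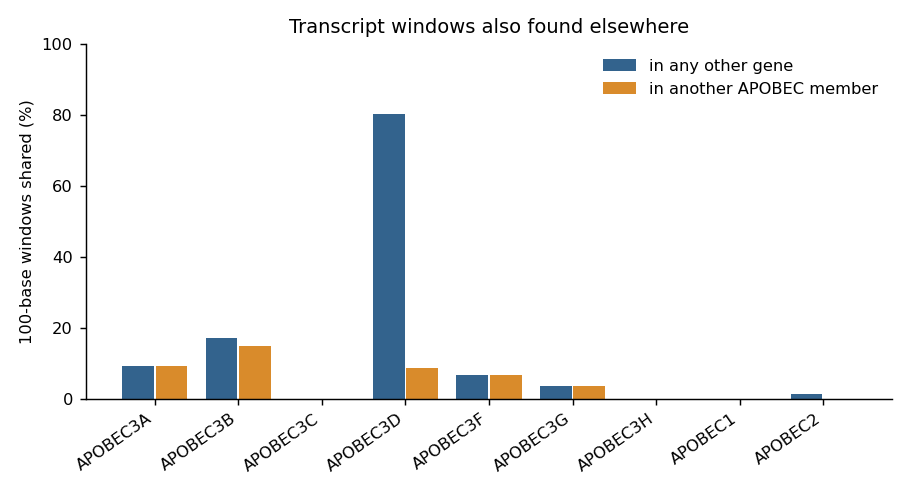
Share of each member's 100-base transcript windows (percent, y axis) that also occur in any other gene or in another of the 9 members. APOBEC3D stands highest at 80.2%, most of it outside the members, while APOBEC3C, APOBEC3H and APOBEC1 share none.

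5 members, APOBEC3B, APOBEC3C, APOBEC3D, APOBEC3F and APOBEC3G, carried nearly all of the family's transcripts. On the TPM scale, which is per length and so allows levels of genes to be compared, the APOBEC3 sum was 78.1 ± 5.62 (SD, n = 3) in WM164 GFP cells, 85.7 ± 1.70 in SKMel28 GFP cells and 45.2 ± 6.42 in A375 GFP cells. With MAFG it stood at 65.2 ± 2.35 for WM164, 72.4 ± 2.54 for SKMel28 and 44.03 ± 1.93 for A375. The libraries of the WM164 conditions did not overlap in this sum (71.7 to 82.1 against 63.4 to 67.9), nor did those of SKMel28 (83.8 to 87.0 against 69.5 to 74.2), whereas those of A375 did. The median log2 TPM change of all genes was itself 0.14 in WM164 and -0.14 in SKMel28. APOBEC3C and APOBEC3B, a deaminase with 1 domain and a nuclear deaminase with 2, together made up between 76.7% and 86.6% of the sum in every library. In each GFP condition APOBEC3C was first (42.2, 41.8 and 26.1 mean TPM in WM164, SKMel28 and A375), followed by APOBEC3B (23.4, 30.3 and 10.5), APOBEC3G (6.14, 9.88 and 5.12), APOBEC3F (4.63, 3.49 and 2.20) and APOBEC3D (1.56, 0.173 and 1.24). In WM164 GFP cells the ranges of APOBEC3G (5.06 to 6.74 TPM) and APOBEC3F (3.8 to 5.43 TPM) overlapped between libraries. Within each library APOBEC3G was the higher, at 5.06, 6.74 and 6.61 TPM against 3.8, 5.43 and 4.67. The order of these neighbours was not tested.

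**Figure D2:**
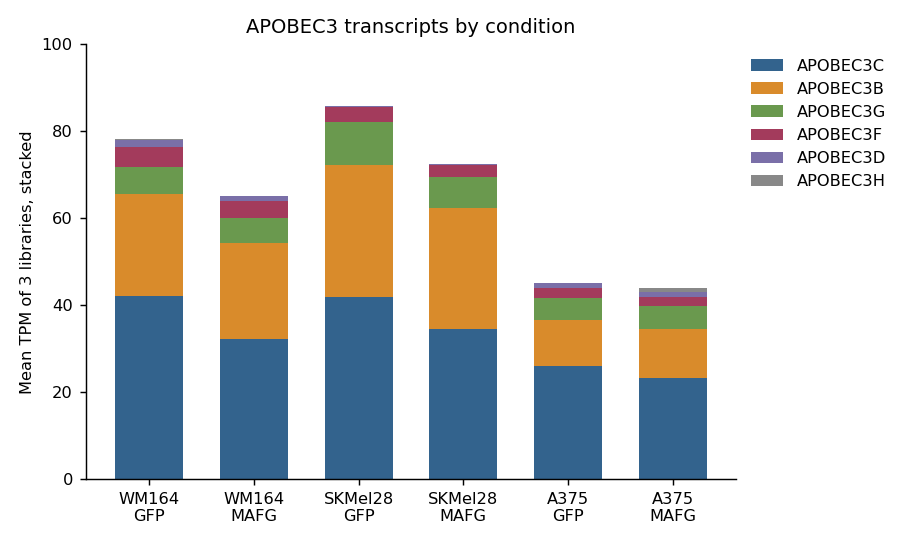
Mean TPM of 3 libraries for each APOBEC3 gene, stacked by condition (y axis, TPM). APOBEC3C and APOBEC3B fill most of every bar, and both A375 bars, at 45.2 and 44.03 TPM, are lower than those of WM164 and SKMel28.

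The other 4 members were at or near the limit of detection, except for APOBEC3H in A375 MAFG cells. APOBEC1 and APOBEC2 had 0 counts in all 18 libraries, which allows at most 0.0769 to 0.149 CPM per library when 3 counts are taken as the limit, a bound on counting error alone. APOBEC3A, the deaminase of myeloid cells and keratinocytes, had 1 count in WM164 MAFG library 3 and 1 count in SKMel28 MAFG library 2. APOBEC3H, which has 1 deaminase domain and several alleles of different stability in the population, had 4, 5 and 6 counts in the WM164 GFP libraries and 3, 2 and 9 in the WM164 MAFG libraries. In SKMel28 it had 6, 0 and 1 counts with GFP and 0, 1 and 1 with MAFG. In A375 it had 0, 2 and 1 counts with GFP and 51, 16 and 7 with MAFG, so that each A375 MAFG library was above each GFP library, although 51 of the 74 MAFG counts came from library 1. The ratio of summed CPM was 22.6 (95% interval 7.44 to 112, counting error only). In TPM, APOBEC3H was at 1.85, 0.74 and 0.23 in A375 MAFG libraries 1, 2 and 3, at most 4.15% of the APOBEC3 sum. APOBEC3H did not reach the count filter and was not tested in the main comparison. Without the filter its A375 change had an adjusted p of 0.0468 by edgeR, and 0.0627 by DESeq2.

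The first comparison asked how the members differed between the lines in GFP cells, where MAFG was not overexpressed. A375 was the line with the lowest levels of APOBEC3B, APOBEC3C and APOBEC3G, and SKMel28 nearly lacked APOBEC3D. Levels below are CPM scaled over all 18 libraries, as mean ± SD with n = 3.

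APOBEC3B stood at 61.2 ± 5.25 CPM in WM164, 55.5 ± 2.96 in SKMel28 and 19.6 ± 1.301 in A375. It was higher than in A375 by 1.64 ± 0.09 log2 units (SE) in WM164 and by 1.501 ± 0.09 in SKMel28, while WM164 and SKMel28 differed by 0.14 with a 95% interval of -0.05 to 0.33. APOBEC3C stood at 114 ± 7.39, 92.3 ± 3.96 and 56.3 ± 1.35 CPM in the same order. All 3 pairs of lines passed the test for APOBEC3C, with log2 differences of 1.02 between WM164 and A375, 0.71 between SKMel28 and A375, and 0.31 between WM164 and SKMel28. These are the members with the most counts, and their GFP libraries in A375 lay below every library of the other lines.

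APOBEC3F, a cytoplasmic restriction factor with 2 domains, was highest in WM164 by counts: it stood at 30.3 ± 2.04 CPM there, 11.0 ± 1.55 in SKMel28 and 10.05 ± 1.78 in A375. WM164 was above A375 by 1.59 ± 0.16 log2 units and above SKMel28 by 1.47 ± 0.16, and SKMel28 and A375 were not told apart (0.12, 95% interval -0.21 to 0.46). The deposited TPM of APOBEC3F did not follow its counts closely. The ratio of count to TPM, scaled by depth, varied 2.43-fold between libraries for this gene. It varied 1.37-fold for APOBEC3C, 1.28-fold for APOBEC3G, 1.07-fold for APOBEC3B and, over 12 libraries, 1.36-fold for APOBEC3D. For APOBEC3F, TPM put SKMel28 above A375 by 0.49 log2 units (limma adjusted p = 0.00596). On TPM the difference of WM164 from SKMel28 shrank to 0.32 and did not pass (limma adjusted p = 0.0603). The median TPM difference of all genes tested between these lines was -0.42, and relative to it APOBEC3F differed by 0.74.

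APOBEC3G, the best known restriction factor of HIV, was highest in SKMel28, at 16.5 ± 0.70 CPM against 14.1 ± 0.90 in WM164 and 8.17 ± 0.37 in A375. It was above A375 by 1.01 ± 0.11 log2 units in SKMel28 and by 0.79 ± 0.11 in WM164, and the difference between WM164 and SKMel28 was -0.22 (95% interval -0.46 to 0.01). APOBEC3D, a further member with 2 domains, stood at 5.38 ± 0.77 CPM in WM164, 0.304 ± 0.18 in SKMel28 and 2.94 ± 0.95 in A375. The SKMel28 GFP libraries held 4, 6 and 14 counts of APOBEC3D against 68 to 189 in the GFP libraries of the other lines. Its log2 difference was 4.13 ± 0.38 between WM164 and SKMel28, -3.26 ± 0.38 between SKMel28 and A375, and 0.87 ± 0.29 between WM164 and A375. With AL022318.4 added to the APOBEC3D counts, these differences were 4.16, -3.18 and 0.97.

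Of the 5 members tested, 5 passed between WM164 and A375, 4 between SKMel28 and A375, and 3 between WM164 and SKMel28. Among all genes tested, 71.5%, 68.6% and 56.8% passed in these comparisons, so a high share is not particular to the family. Adjusted p ran from 1.56e-12 to 0.0120 for those that passed (edgeR). On the TPM scale the median of all genes tested was -0.42 between WM164 and SKMel28 and -0.35 between WM164 and A375. There APOBEC3B and APOBEC3G were lower in WM164 than in SKMel28 by -0.36 and -0.61 log2 units (limma adjusted p = 0.00286 and 0.000924), which became 0.06 and -0.19 relative to that median. The APOBEC3C difference between WM164 and SKMel28 was 0.01 on TPM and did not pass (limma adjusted p = 0.931), and was 0.44 relative to that median. Between WM164 and A375, APOBEC3B, APOBEC3C and APOBEC3F passed on TPM. APOBEC3G and APOBEC3D, at 0.22 and 0.20, did not (limma adjusted p = 0.153 and 0.229). Relative to the median for WM164 against A375, these 2 members were at 0.57 and 0.55.

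**Figure D3:**
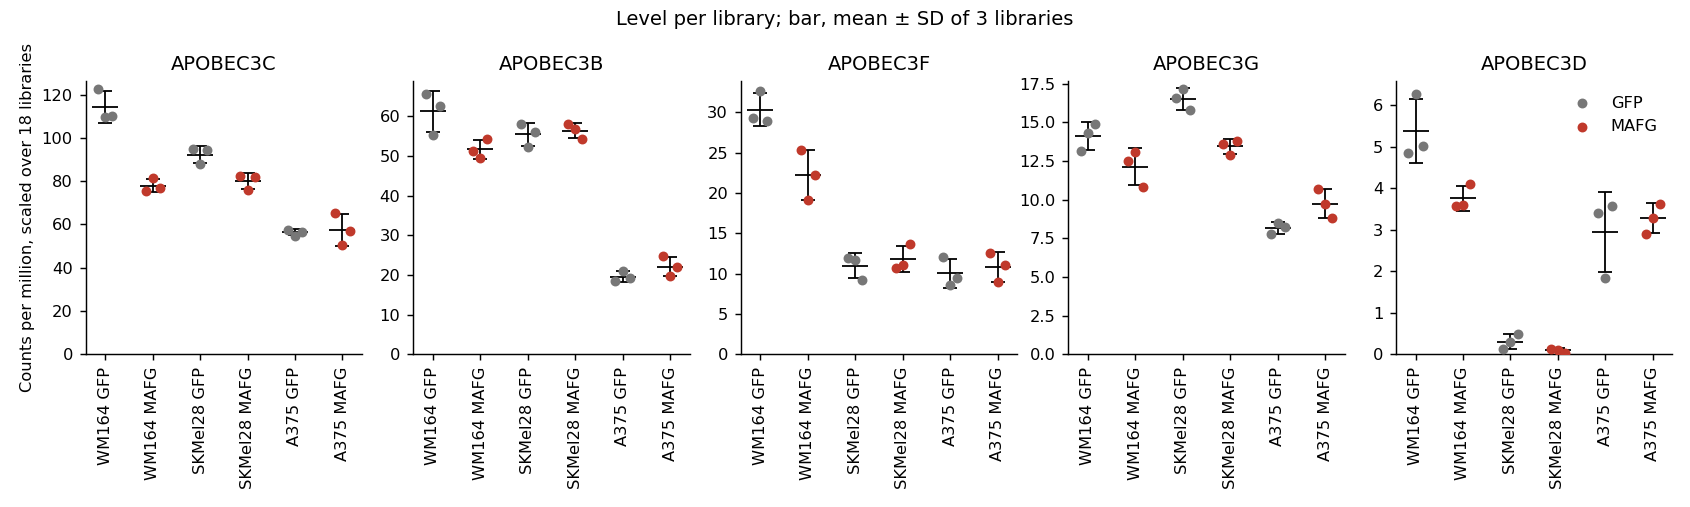
Level of the 5 expressed members in each library (points; y axis, CPM scaled over 18 libraries) with the mean and SD of each condition. WM164 GFP is the highest condition for APOBEC3C, APOBEC3B, APOBEC3F and APOBEC3D, SKMel28 GFP for APOBEC3G, and APOBEC3D is near 0 in SKMel28.

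The main comparison asked what changed with MAFG in each line. In WM164, 4 of the 5 members tested were lower in MAFG cells: APOBEC3C, APOBEC3D, APOBEC3F and APOBEC3B fell by between 15.5% and 31.8%. In SKMel28, 2 of the 4 members tested, APOBEC3C and APOBEC3G, fell, by 13.1% and 18.4%. In A375, 0 of the 5 members tested passed. Among all genes tested, 31.8% passed in WM164, 29.9% in SKMel28 and 0.843% in A375. The share that passed as lower was 15.6% in WM164 and 15.3% in SKMel28. The changes of the tested members were small, and none in any line reached 2-fold. Of all genes, 6.94% passed with a change above 2-fold in WM164, 4.74% in SKMel28 and 0.665% in A375. In bulk RNA, fewer transcripts in each cell and fewer cells that carry them cannot be told apart. CPM below are scaled within each line.

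In WM164, APOBEC3C was at 116, 103 and 104 CPM in the GFP libraries and at 71.3, 76.8 and 72.6 CPM in the MAFG libraries. All MAFG libraries were well below all GFP libraries, and the log2 fold change was -0.55 ± 0.06 (SE, adjusted p = 1.79e-06, edgeR). This was the member with the most reads, and it shared no 100-base window with another gene. APOBEC3F was at 27.8, 30.8 and 27.3 CPM with GFP and at 23.96, 18.1 and 20.9 CPM with MAFG, without overlap, a log2 fold change of -0.45 ± 0.10 (adjusted p = 0.00176). APOBEC3B was at 62.1, 52.2 and 59.2 CPM with GFP and at 48.5, 46.8 and 51.2 CPM with MAFG. Its libraries were also apart, and its log2 fold change of -0.24 ± 0.07 had an adjusted p of 0.0164. That call was lost without GFP library 1 or 3 or MAFG library 1 or 2 (adjusted p = 0.0566 to 0.0743, edgeR).

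APOBEC3G was at 12.4, 13.5 and 14.1 CPM with GFP and at 11.8, 12.4 and 10.2 CPM with MAFG in WM164. The highest MAFG library lay just below the lowest GFP library, and the log2 fold change of -0.22 ± 0.11 did not pass (adjusted p = 0.136, edgeR; 95% interval -0.45 to 0.01). APOBEC3D was at 4.60, 5.91 and 4.74 CPM with GFP and at 3.38, 3.39 and 3.87 CPM with MAFG, a log2 fold change of -0.52 ± 0.18 (adjusted p = 0.0318). The call was lost without GFP library 2 (adjusted p = 0.149), the highest of them, and without MAFG library 1 or 2 (0.0891 and 0.0823), all by edgeR. DESeq2 gave an adjusted p of 0.0756 with all libraries.

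AL022318.4, the model that overlaps APOBEC3D, had 37, 17 and 42 counts in the WM164 GFP libraries and 0 in each MAFG library. The 95% interval of its summed CPM with MAFG over that with GFP ended at 0.0376, for counting error only. When its counts were added to those of APOBEC3D, an alternative chosen after seeing the data, the sums were 173, 206 and 169 with GFP and 102, 97 and 133 with MAFG. The log2 fold change was then -0.80 ± 0.16 (adjusted p = 0.000711, edgeR), larger than for APOBEC3D alone. In A375 the overlapping model had 10, 34 and 0 counts with GFP and 37, 23 and 0 with MAFG, so it varied as widely between libraries of a condition as between conditions. How reads were divided between the 2 models cannot be read from the counts.

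**Figure D4:**
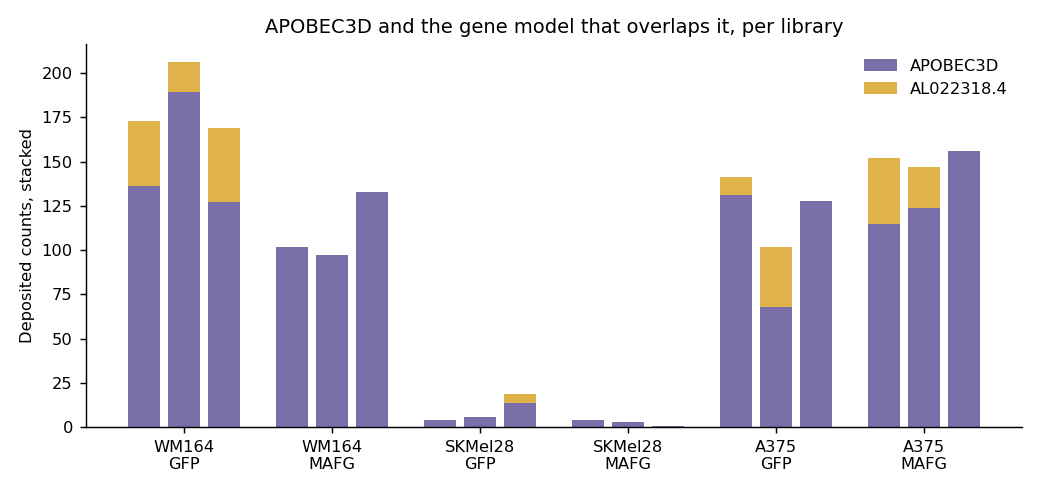
Deposited counts of APOBEC3D and of the overlapping gene model AL022318.4, stacked for each library (y axis, counts). WM164 GFP libraries reach 169 to 206 summed counts and WM164 MAFG libraries 97 to 133, and the overlapping model is absent from all WM164 MAFG libraries.

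Across all genes tested in WM164, 31.8% passed and 15.6% passed with a lower level, against 4 of 5 members, all lower. The median log2 fold change of the 5 members was -0.45, beside -0.00153 for all genes. The libraries of the conditions did not overlap for 5 of 5 members and for 43.4% of all genes. With TPM in place of counts, APOBEC3C was the only member called in WM164 (-0.38, limma adjusted p = 0.0309). On that scale the median of all genes tested was 0.14, and 81.2% of called genes were higher, against 50.9% from counts. Relative to that median the members' log2 TPM changes were -0.51 for APOBEC3C, -0.36 for APOBEC3D, -0.32 for APOBEC3F, -0.25 for APOBEC3G and -0.21 for APOBEC3B, all lower as from counts. The summed melanocyte lineage markers also moved in WM164, from between 902 and 1252 TPM with GFP to between 593 and 685 TPM with MAFG, and their part in the result was not tested.

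In SKMel28, APOBEC3C was at 90.7, 83.4 and 90.3 CPM with GFP and at 78.9, 72.5 and 78.4 CPM with MAFG. The groups did not overlap, and the log2 fold change was -0.20 ± 0.06 (adjusted p = 0.0205, edgeR). The call was lost without GFP library 1 or 3 or MAFG library 2 (adjusted p = 0.0751 to 0.107). APOBEC3G was at 15.8, 16.3 and 15.1 CPM with GFP and at 13.03, 12.3 and 13.2 CPM with MAFG, also without overlap, a log2 fold change of -0.29 ± 0.10 (adjusted p = 0.0378). For APOBEC3G the call was lost without any of GFP libraries 1, 2 and 3 and MAFG libraries 1 and 2 (adjusted p = 0.0568 to 0.116, edgeR), with DESeq2 (0.0936) and with a replicate block (0.0560, edgeR), while its direction held in each.

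APOBEC3B in SKMel28 was at 55.5, 49.7 and 53.7 CPM with GFP and at 55.5, 54.1 and 52.0 CPM with MAFG. The groups overlapped, and the log2 difference of 0.02 had a 95% interval of -0.12 to 0.16. APOBEC3F was at 11.5, 11.1 and 8.80 CPM with GFP and at 10.2, 10.5 and 13.1 CPM with MAFG (0.11, 95% interval -0.19 to 0.40). APOBEC3D had 4, 6 and 14 counts with GFP and 4, 3 and 1 with MAFG, too few to be tested, with a ratio of summed CPM of 0.291 (95% interval 0.113 to 0.670, counting error only). The 2 members called of 4 tested compare with 29.9% of all genes called in SKMel28 and 15.3% called lower. Libraries did not overlap for 2 of the 4 and for 43.0% of all genes. On the TPM scale the median of all genes shifted by -0.14, 18.3% of called genes were higher against 48.8% from counts, and APOBEC3C and APOBEC3G were again called (-0.26 and -0.43, limma adjusted p = 0.0295 and 0.0211). Relative to that median, the TPM changes were -0.12 for APOBEC3C, -0.29 for APOBEC3G, 0.02 for APOBEC3B and -0.08 for APOBEC3F, whose sign thus differed from that of its counts. The melanocyte lineage sum ran from 1765 to 1932 TPM with GFP and from 1284 to 1462 TPM with MAFG, and its part was not tested. AXL, a marker of dedifferentiated melanoma, ran from 0.35 to 0.56 TPM with GFP and from 3.8 to 4.4 with MAFG in WM164. In SKMel28, AXL ran from 0.08 to 0.12 and from 3.53 to 3.62. It was far higher in A375 and lower with MAFG there, from 101.75 to 119.78 TPM with GFP and from 90.45 to 98.5 with MAFG. The median log2 TPM change of all genes was -0.10 in A375, and the AXL difference was not tested here.

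In A375, APOBEC3C was at 63.7, 60.7 and 63.2 CPM with GFP and at 70.0, 56.7 and 64.3 CPM with MAFG. Its MAFG libraries spanned the GFP libraries, and the log2 difference of 0.03 had a 95% interval of -0.22 to 0.27. APOBEC3B was at 20.5, 23.3 and 21.5 CPM with GFP and at 26.4, 22.2 and 24.7 CPM with MAFG (0.17, -0.11 to 0.44). APOBEC3G was at 8.62, 9.43 and 9.17 CPM with GFP and at 11.4, 10.9 and 9.99 CPM with MAFG. It was the only member tested in A375 whose libraries were apart, all MAFG above all GFP, with a log2 difference of 0.25 ± 0.14 (95% interval -0.07 to 0.57) that did not pass (adjusted p = 0.955, edgeR).

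APOBEC3F in A375 was at 13.4, 9.58 and 10.5 CPM with GFP and at 13.4, 9.996 and 12.5 CPM with MAFG (0.10, 95% interval -0.29 to 0.49). APOBEC3D was at 3.79, 2.05 and 3.98 CPM with GFP and at 3.11, 3.69 and 4.10 CPM with MAFG (0.15, -0.51 to 0.81). Both overlapped between conditions. By edgeR 0 of 5 members were called and 0 had an unadjusted p under 0.05, DESeq2 called 0 and limma on TPM called 0, beside 0.843% of all genes called by edgeR. Libraries did not overlap for 1 of 5 members and for 12.8% of all genes. The melanocyte lineage sum ran from 11.8 to 12.8 TPM with GFP and from 35.9 to 47.3 TPM with MAFG in A375. Of its 6 genes, only MITF and SOX10 reached a mean of 1 TPM there, in both conditions. The part of this sum was not tested here either. The intervals in A375 were wider than in WM164 for every member, and their upper ends were 0.81 for APOBEC3D, 0.49 for APOBEC3F and 0.57 for APOBEC3G. Without A375 MAFG library 1, 393 of all genes were called in A375 instead of 133. Leaving out any other A375 library gave 59 to 83, and 0 members were called in each of these fits (edgeR).

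**Figure D5:**
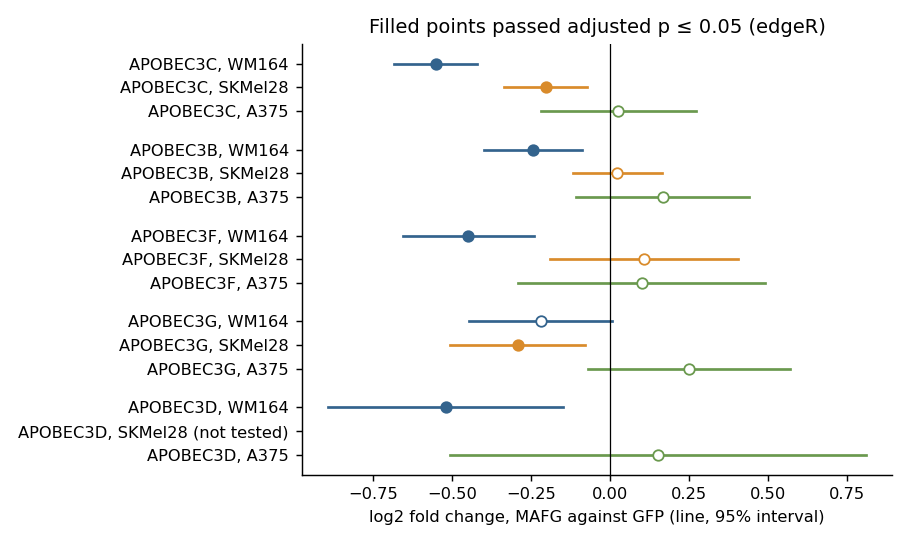
log2 fold change of MAFG against GFP for the 5 expressed members in each line (x axis; points, edgeR estimates; lines, 95% intervals; filled, adjusted p at or below 0.05). All WM164 points lie below 0, from -0.55 to -0.22, all A375 points lie above 0, from 0.03 to 0.25, and in SKMel28 the APOBEC3C and APOBEC3G points are filled.

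Whether the response to MAFG differed between lines was tested directly in 1 model of the 18 libraries. The response of APOBEC3C was lower in WM164 than in A375 by -0.58 ± 0.12 log2 units (adjusted p = 0.00236, edgeR), and that of APOBEC3B by -0.42 ± 0.13 (adjusted p = 0.0475). The response of APOBEC3G was lower in SKMel28 than in A375 by -0.55 ± 0.16 (adjusted p = 0.0323, edgeR). Among all genes, 9.21% passed for WM164 against A375, 9.51% for SKMel28 against A375 and 13.7% for WM164 against SKMel28. Between WM164 and SKMel28 0 members passed by edgeR, 3 had an unadjusted p under 0.05, and DESeq2 called APOBEC3C. The nearest was APOBEC3C, at -0.35 with a 95% interval of -0.59 to -0.10 (adjusted p = 0.0563, edgeR). The lines' own values stand side by side as -0.55, -0.20 and 0.03 for APOBEC3C and -0.22, -0.29 and 0.25 for APOBEC3G in WM164, SKMel28 and A375. The 2 differences with the smaller margin did not outlast removal of libraries. The APOBEC3B call was lost without A375 GFP library 1 or 3, A375 MAFG library 1 or 3, WM164 GFP library 1 or 3 or any WM164 MAFG library (adjusted p = 0.0593 to 0.132, edgeR). The APOBEC3G call was lost without A375 GFP library 1, A375 MAFG library 1, SKMel28 GFP library 1 or 2 or any SKMel28 MAFG library (0.0528 to 0.0801). With a replicate block their adjusted p were 0.118 and 0.0990 (edgeR), and on the TPM scale 0 members passed for either pair of lines. The median TPM difference of all genes tested was 0.21 for WM164 against A375 and -0.05 for SKMel28 against A375. Relative to these medians, APOBEC3C was at -0.44 and APOBEC3B at -0.37 for WM164 against A375. APOBEC3G was at -0.47 for SKMel28 against A375.

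Members did not follow each other equally across the 18 libraries. The Pearson correlation of log2 CPM was 0.90 between APOBEC3B and APOBEC3C, 0.89 between APOBEC3B and APOBEC3G and 0.84 between APOBEC3C and APOBEC3G, but 0.67, 0.56 and 0.34 between APOBEC3F and APOBEC3C, APOBEC3B and APOBEC3G. The libraries fall into 3 lines, so these values largely describe the differences between lines. Among 18767 genes, those most like APOBEC3B were ANXA5 and CPQ (both 0.99), those most like APOBEC3C were ANXA6 and FAH (both 0.97), those most like APOBEC3F were N4BP2L1 and FPGT-TNNI3K (both 0.96), and those most like APOBEC3G were UBAP1L and DNASE2 (both 0.96).

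The genes that flank the cluster were tested in the same fits. CBX6, a Polycomb chromobox gene before APOBEC3A, rose by 0.37 ± 0.06 log2 units in WM164 (adjusted p = 0.00013, edgeR) and did not pass in SKMel28 (-0.11) or A375 (-0.05). CBX7, the chromobox gene after APOBEC3H, fell by 0.50 ± 0.14 in SKMel28 (adjusted p = 0.0107, edgeR) and missed the threshold in WM164 (-0.24, 0.0525). Of 13 neighbouring genes, 12 were tested in WM164, where 3 rose and 1 fell, and 11 in SKMel28, where 2 fell. The share called among neighbours was thus near the 31.8% of all genes in WM164 and below the 29.9% in SKMel28. NPTXR, a neuronal pentraxin receptor, rose by 1.06 in WM164 and fell by 0.96 in SKMel28, SYNGR1 rose by 0.49 in WM164, and GTPBP1 fell by 0.25 in WM164. In A375 0 of 12 neighbours passed by edgeR.

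Genes that act after the deaminases, in uracil repair and translesion synthesis, were all measured. Of the 24, 9 fell and 1 rose in WM164, where 31.8% of all genes passed and 15.6% passed as lower, with a median log2 fold change of -0.15. In SKMel28 2 fell and 2 rose (median 0.02), fewer than the 29.9% of all genes that passed there, and in A375 0 passed by edgeR. UNG, the uracil DNA glycosylase that removes the product of APOBEC activity, fell by 0.44 ± 0.10 in WM164 (adjusted p = 0.00321, edgeR) and was at 0.09 in SKMel28 and -0.08 in A375. POLH, a translesion polymerase, fell by 0.48, MAD2L2, a subunit of polymerase zeta, fell by 0.44, and LIG1, DNA ligase 1, fell by 0.33 in WM164. In SKMel28, LIG1 fell by 0.40 and XRCC1, a scaffold of single-strand break repair, fell by 0.34.

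Of 21 reported regulators of APOBEC3 genes, all tested, 4 rose and 5 fell in WM164, 5 rose and 5 fell in SKMel28, and 0 passed in A375. These counts stand beside 31.8% of all genes called in WM164 and 29.9% in SKMel28. PRKCA, protein kinase C alpha, rose by 0.93 ± 0.09 in WM164 and by 0.77 ± 0.24 in SKMel28 (adjusted p = 1.62e-07 and 0.0246, edgeR). TFAP2A fell by 0.69 in WM164 and was at 0.09 in SKMel28. FOXM1, a cell cycle factor that works with MYBL2, fell by 0.42 in WM164 but rose by 0.22 in SKMel28 (adjusted p = 8.95e-05 and 0.0118, edgeR). IRF9 rose by 0.57 in WM164, and IRF3 fell by 0.43 in SKMel28. Of 16 other deaminases and editing partners, 9 were tested in both WM164 and SKMel28, where 2 rose in each, below the share of all genes called, and 11 in A375, where 0 passed. SYNCRIP, a partner of APOBEC1 in editing, rose in both (0.32 and 0.29), ADARB1, an adenosine deaminase of RNA, rose by 0.79 in WM164, and CDADC1 rose by 0.61 in SKMel28. RBM47 (-0.41, -0.08 and 0.11 in WM164, SKMel28 and A375) and ADAT3 (0.36, -0.01 and 0.20) did not pass in any line, and APOBEC4 was not tested because of its low counts.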

How the data were processed

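RNA was measured in 18 libraries of 3 cell lines. The authors deposited raw counts per gene and TPM. The submitters' processing notes name cutadapt 1.8.1, STAR 2.7.7a, RSEM 1.3.0 and DESeq2, with GRCh38, whereas the study's methods name a counter of unique reads. The labels describe a non-stranded kit and the methods a stranded kit, so how shared and antisense reads were counted is not settled by these sources. Columns of the authors' comparisons were not used.

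Genes passing edgeR's filterByExpr (edgeR 4.0.16, R 4.3.3) were TMM-normalized and tested with the quasi-likelihood F test, within each line for MAFG against GFP and over 18 libraries for other contrasts. Genes were called at a Benjamini-Hochberg adjusted p of at most 0.05 over all genes tested. Alternatives were DESeq2 1.42.0, its size factors, other filters, a replicate block, limma 3.58.1 on log2(TPM + 1) or log2(TPM + 0.1), 1 library left out, and a joint model. The fits were tested on simulated data. Same-condition libraries differed by more than counting noise. Sequences and 100-base windows came from GENCODE 44 and GRCh38. All 9 members are named, as are up to 5 genes of each list by smallest adjusted p, the flanking genes and, for likeness, 2 genes per member. The members and lists were chosen with earlier results of these data known.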

Additional observations from a re-analysis of the deposited data

Results flagged for a closer look

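3 responses to MAFG differed between lines by an interaction test across the 18 libraries. APOBEC3C responded lower in WM164 than in A375, by -0.58 log2 units (95% interval -0.83 to -0.34). APOBEC3B did so by -0.42 (95% interval -0.69 to -0.15). APOBEC3G responded lower in SKMel28 than in A375, by -0.55 (95% interval -0.88 to -0.22). For WM164 against A375, 2 of 5 members passed, beside 9.21% of all genes. For SKMel28 against A375, 1 of 5 passed, beside 9.51%, and for WM164 against SKMel28 0 of 5, beside 13.7%. The call for APOBEC3C held under 17 of 20 alternative fits. That for APOBEC3B was lost under 14 of 20 and that for APOBEC3G under 12 of 20, the replicate block and TPM among them. None of the 3 differences reached the 2-fold limit.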

How the results depend on the processing

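APOBEC3C in WM164 kept its direction and its call under all 15 alternative fits run. The difference of its response from that in A375 kept the call under 17 of 20, with limma on TPM as the exceptions. The 2-fold limit is not among these fits, and neither change reached it. In WM164, 4 members were called. The count was 1 by limma on log2(TPM + 1), on log2(TPM + 0.1) and without the TPM filter, 2 with all 18 libraries in the model, 0 with a 2-fold limit and 2 to 4 with 1 library left out. In SKMel28 it went from 2 to 1 with DESeq2, with no count filter and with the replicate block, to 0 in the joint model and with the 2-fold limit, and to 0 to 2 with a library left out. In A375 it went from 0 to 1 with no count filter, through APOBEC3H, and stayed at 0 with a library left out. For the difference of WM164 from A375 it went from 2 to 1 with no filter or with the replicate block, to 0 on the 3 TPM settings and with the 2-fold limit, and to 1 to 3 with a library left out. For SKMel28 against A375 it went from 1 to 2 with DESeq2 and with the counts of APOBEC3D and its overlapping gene summed, to 0 with the replicate block, the 3 TPM settings and the 2-fold limit, and to 0 to 2 with a library left out. For WM164 against SKMel28 it went from 0 to 1 with DESeq2 and with its size factors in edgeR. Between WM164 and A375 GFP cells it went from 5 to 3 on the 3 TPM settings and with the 2-fold limit.

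Signs turned only for members that were not called. On log2(TPM + 1), with and without its filter, the log2 changes became -0.12 for APOBEC3B and -0.23 for APOBEC3F in SKMel28, and -0.15, -0.036 and -0.087 for APOBEC3C, APOBEC3D and APOBEC3F in A375. On log2(TPM + 0.1) they became -0.13, -0.29, -0.16, -0.0539 and -0.12 in the same order. With a library left out they ran from -0.0204 to 0.0594, -0.0112 to 0.18, -0.0476 to 0.10, -0.10 to 0.31 and -0.00728 to 0.25. On log2(TPM + 1) with its filter, the median of all genes tested was -0.14 in SKMel28 and -0.10 in A375. Relative to that median, the changes were 0.02, -0.08, -0.05, 0.07 and 0.02 in the same order. The cause of the turned signs was not tested.

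Over all genes, calls went from 5065 to between 1306 and 1918 on the TPM settings in WM164 and from 4640 to between 1625 and 2575 in SKMel28. In A375 they went from 133 to between 5 and 19 on these settings. A library left out gave 393 there without MAFG library 1 and 59 to 83 otherwise. DESeq2 gave 243 in A375, no filter 328, a minimum of 10 counts 84 and the block 64. In the joint model the calls were 3022, 3038 and 506 in WM164, SKMel28 and A375. The difference of SKMel28 from A375 went from 1784 to between 603 and 680 on TPM, that of WM164 from A375 from 1728 to 1049, and 2694 without A375 MAFG library 1. Libraries with the same number did not deviate together (r at most 0.0329), so the replicate block is given here as an alternative alone, and no pairing is assumed. Depth limits APOBEC3A, APOBEC3H and, in SKMel28, APOBEC3D.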
